A study of Mus musculus with 2 samples.

Results

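The phagocyte NADPH oxidase is represented here by 7 genes (Cybb, Cyba, Ncf1, Ncf4, Rac1, Rac2 and Hvcn1), taken by name from 45318 genes of the deposited count table. They encode membrane and cytosolic subunits, the Rac GTPases and a proton channel; other subunits of the complex are not analysed here. The brequinar library holds RNA of GFP-positive leukaemia cells, carrying the MLL/AF9 fusion oncogene, that were sorted from bone marrow of leukaemic C57Bl/6 mice given brequinar, an inhibitor of dihydroorotate dehydrogenase in pyrimidine synthesis. The vehicle library holds the same kind of sorted cells from mice given vehicle. Both groups share the strain, the fusion, the GFP label and the marrow source. Each treatment has 1 library, so differences cannot be set against a spread between samples. Dose, time, age and the number of mice behind a library are not stated in the labels.

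The oxidase moves electrons from cytosolic NADPH across a membrane to oxygen and so makes superoxide, which phagocytes use to kill microbes. In resting cells the membrane core (gp91phox with p22phox) is apart from the cytosolic subunits (p47phox and p40phox among them) and from Rac; on stimulation they meet at the membrane. Neutrophils and macrophages carry the complete enzyme, and myeloid precursors gain it as they mature. Loss of a core or organising subunit in humans causes chronic granulomatous disease.

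All 7 genes were measured and all had more normalised counts in the brequinar library. Cybb, the catalytic subunit gene, was 9.48-fold higher there. Ncf1, Ncf4 and Hvcn1 were 2.14-fold to 2.38-fold higher, and Cyba, Rac1 and Rac2 were 1.28-fold to 1.51-fold higher. A gene is called higher or lower when its log2 ratio of brequinar over vehicle, computed on CPM (counts scaled to library size, here with TMM factors) with a prior count of 2, reaches 2-fold. Of the 7 members 4 were called higher and 0 lower, whereas 6.45% of the 11504 genes whose mean over both libraries reached 1 CPM were called higher and 4.40% lower. Among the 4259 genes averaging 50 CPM or more, a level that every member passes, 3.59% were called higher. The median log2 ratio was 1.09 over the members and 0.00 over all genes that passed the filter. The members were chosen with earlier results of these data known, so the contrast with all genes is not a test. No test between treatments exists in this design. Intervals given are 95% intervals, exact unless stated otherwise, and cover counting error only. The reads carry no molecular identifiers and were amplified, so even counting error can be larger.

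**Figure D1:**
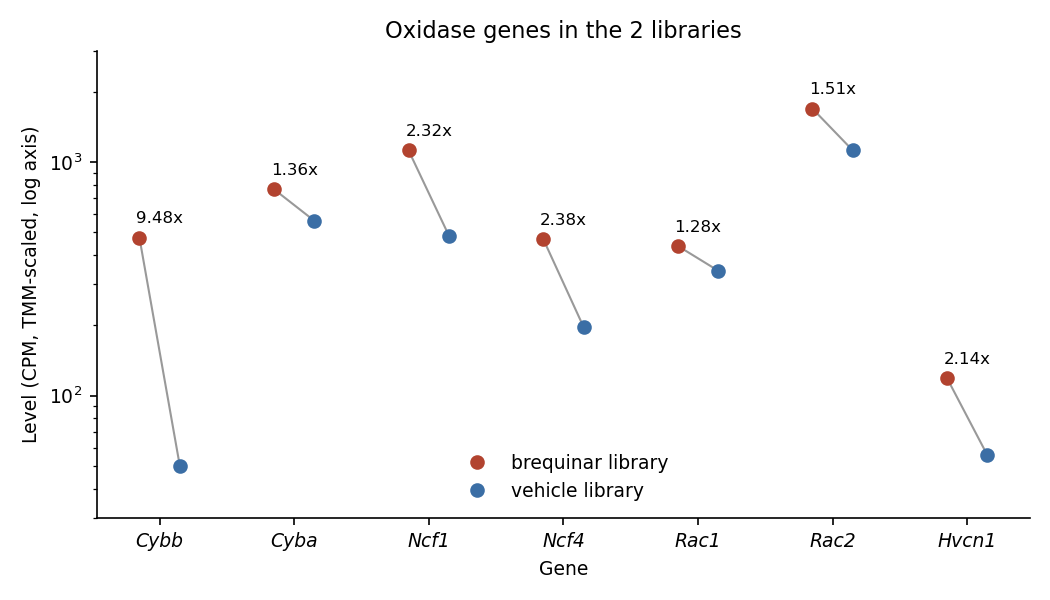
Level of each oxidase gene in CPM on a log axis, with the brequinar library as the left point and the vehicle library as the right point of each pair and the fold above them. The Cybb pair is the widest (475 and 50.1 CPM), and the Cyba, Rac1 and Rac2 pairs are the narrowest.

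The 2 libraries held 47950714 (brequinar) and 47935476 (vehicle) gene counts, so depth was nearly equal and 1 count was worth 0.0215 and 0.0202 CPM. All 8 listed genes of leukaemia blasts and progenitors were measured in both libraries, at 48.9 to 1702 CPM in the brequinar library and 71.6 to 5912 CPM in the vehicle library. Among them Hoxa9, a transcription factor that MLL fusions keep active, stood at 231 CPM in the brequinar library and 238 CPM in the vehicle library. Of the 8 genes, 0 were called higher and 3 lower. These were Kit (76.5 and 180 CPM in the brequinar and vehicle libraries), Cd34 (48.9 and 140 CPM) and Mpo (979 and 5912 CPM). All 8 summed to 3716 CPM in the brequinar library against 10270 CPM in the vehicle library. Most of both sums came from Mpo and from Elane, which was not called (1702 CPM in the brequinar library and 3098 CPM in the vehicle library). Over all genes that passed the filter, 6.45% were called higher and 4.40% lower. Of 11 markers of mature neutrophils, 10 were called higher. All 11 neutrophil markers summed to 8793 CPM in the brequinar library against 1145 CPM in the vehicle library. Of 10 measured markers of resident macrophages, 8 were called higher, and these 8 summed to 67.0 CPM in the brequinar library against 6.89 CPM in the vehicle library. All 12 listed macrophage markers summed to 791 CPM in the brequinar library against 598 CPM in the vehicle library, most of it from the 2 measured markers that were not called, Vcam1 (496 CPM in the brequinar library and 370 CPM in the vehicle library) and Adgre1 (225 CPM in the brequinar library and 221 CPM in the vehicle library). No marker of these 3 lists was at 0 in either library. Neutrophils and macrophages are themselves sources of oxidase mRNA, and the part of these cell types in the oxidase values was not tested. In such bulk RNA, more cells of a type and more RNA per cell cannot be told apart.

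Cybb (ENSMUSG00000015340.7; chromosome X, 9435252 to 9487771, minus strand, GRCm38) encodes gp91phox, the flavin- and haem-bearing subunit that carries the electrons. It had 22082 counts in the brequinar library and 2481 in the vehicle library, or 475 CPM (interval 469 to 482) and 50.1 CPM (48.2 to 52.2). The ratio was 9.48-fold (interval 9.10 to 9.89; log2 ratio 3.24). It was the 68th highest log2 ratio of 11504 genes, and the 20th highest among those 4259 more abundant genes. By level, Cybb ranked 342nd in the brequinar library and 4135th in the vehicle library among the genes that passed the filter.

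Cyba (ENSMUSG00000006519.10; chromosome 8, 122424776 to 122432930, minus strand) encodes p22phox, the partner that stabilises gp91phox in the membrane and docks p47phox. It had 35555 counts in the brequinar library (765 CPM, interval 757 to 773) and 27752 in the vehicle library (561 CPM, interval 554 to 567), a 1.36-fold ratio (interval 1.34 to 1.39). The genes of this obligate protein pair thus differed in their ratios: relative to Cyba, Cybb was 6.95-fold higher in the brequinar library than in the vehicle library (normal-approximation interval 6.65 to 7.26). A ratio between 2 genes of the same library does not depend on how libraries are scaled.

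Because the genes of this pair differed in their ratios, their promoter sequences are shown, with that of Ncf1 as the cytosolic subunit gene that has an entry. The 250 bases before the RefSeq start (GRCm38.p6, minus strand, 5′ to 3′) are shown, with matches on either strand to CCAAT (the box of that name), to GAGGAA (an ETS site of the PU.1 type), to TGANTCA (a site of the AP-1 type), to TATAAA (a core promoter box) and to GGGCGG (a GC box) in capitals. The regions are chrX:9469325-9469574 for Cybb, chr8:122432941-122433190 for Cyba and chr5:134229626-134229875 for Ncf1. The Cybb window lies inside the annotated gene. Bases just after its RefSeq start were found at or near the start of an annotated transcript. That RefSeq start lies 18447 bases from the gene's outermost 5′ end. The Cyba RefSeq start lies 10 bases outside the gene's annotated end, and that of Ncf1 coincides with it.
Cybb: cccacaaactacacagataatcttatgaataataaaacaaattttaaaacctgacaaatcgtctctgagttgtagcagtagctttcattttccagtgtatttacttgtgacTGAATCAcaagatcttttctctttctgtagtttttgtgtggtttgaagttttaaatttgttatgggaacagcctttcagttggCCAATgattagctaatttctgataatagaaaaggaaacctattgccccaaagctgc
Cyba: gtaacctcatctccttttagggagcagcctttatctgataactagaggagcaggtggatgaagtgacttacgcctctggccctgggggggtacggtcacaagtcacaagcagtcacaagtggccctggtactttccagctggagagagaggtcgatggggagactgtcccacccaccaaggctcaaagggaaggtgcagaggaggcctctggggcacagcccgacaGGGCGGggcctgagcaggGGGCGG
Ncf1: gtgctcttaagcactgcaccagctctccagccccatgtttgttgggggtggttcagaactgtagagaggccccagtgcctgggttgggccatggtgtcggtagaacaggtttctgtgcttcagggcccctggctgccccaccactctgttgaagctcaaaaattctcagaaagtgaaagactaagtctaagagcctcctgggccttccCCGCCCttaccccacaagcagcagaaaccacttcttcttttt
The Cybb window held 34.0% G and C, against 60.0% in the Cyba window and 54.4% in the Ncf1 window. It had 1 CCAAT match, 56 to 52 bases before the start, and 1 TGANTCA match, 139 to 133 bases before it. Over 32851 promoter windows of the same length in the RefSeq table, 33.8% held CCAAT and 6.75% held TGANTCA. The Cyba window had 2 GGGCGG matches and the Ncf1 window 1, a motif held by 32.7% of windows. GAGGAA (23.3% of windows) and TATAAA (12.4%) were matched in none of the 3 windows. The absence of GAGGAA does not show that a promoter lacks a PU.1 site, and bases after the start were not searched. The ETS core GGAA, which GAGGAA contains and which is not capitalised, had 3 matches in Cybb, 2 in Cyba and 1 in Ncf1, but 93.4% of windows hold it. Promoter entries were matched for these 3 of the 7 members. These matches describe letters only, and no binding was measured.

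**Figure D2:**
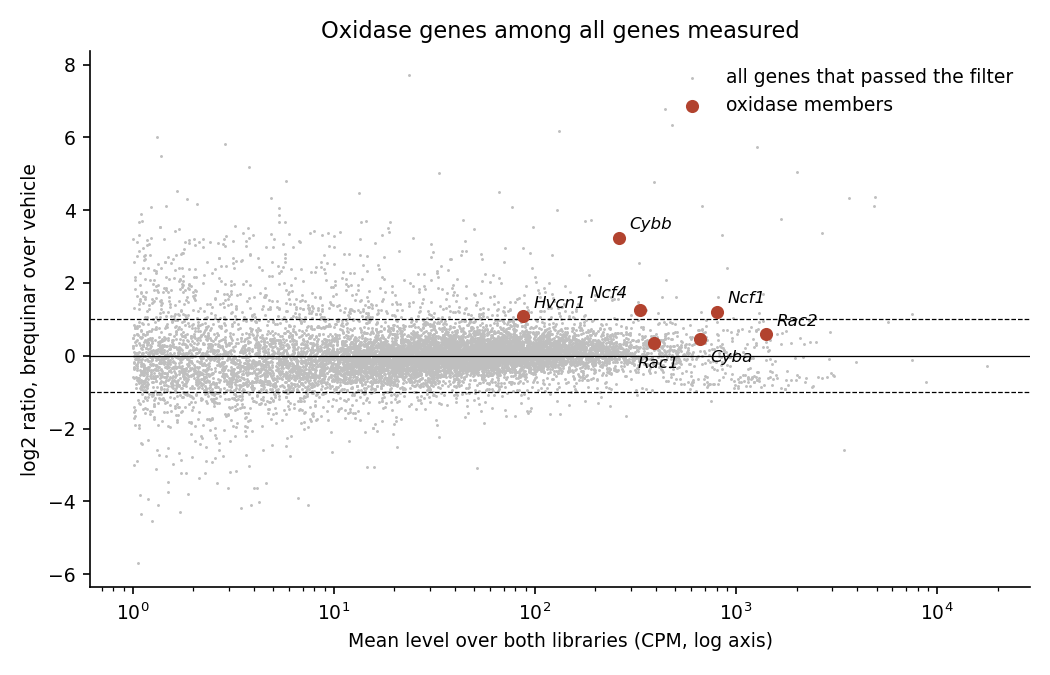
Log2 ratio of brequinar over vehicle against mean level in CPM (log axis) for the 11504 genes that passed the filter (grey) and the 7 oxidase genes (red); dashed lines mark 2-fold. Cybb, at a log2 ratio of 3.24, is well above the other members, which run from 0.35 to 1.25.

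The genes of the cytosolic subunits p47phox and p40phox had almost the same ratio. Ncf1 (ENSMUSG00000015950.10; chromosome 5, 134220053 to 134229625, minus strand) encodes p47phox, the organiser whose phosphorylation lets the complex assemble. It had 52134 counts in the brequinar library (1122 CPM, interval 1113 to 1132) and 23952 in the vehicle library (484 CPM, interval 478 to 490), a 2.32-fold ratio (2.28 to 2.35). Ncf4 (ENSMUSG00000071715.8; chromosome 15, 78244801 to 78262580, plus strand) encodes p40phox, which binds phosphatidylinositol 3-phosphate on phagosomes. It had 21791 counts in the brequinar library (469 CPM, interval 463 to 475) and 9746 in the vehicle library (197 CPM, interval 193 to 201), a 2.38-fold ratio (2.33 to 2.44). The Ncf1 log2 ratio minus the Ncf4 log2 ratio was -0.04 (interval -0.08 to 0.00). This was the single pair among 21 pairs of members whose interval held 0. That interval bounds counting error and does not show that the 2 genes respond alike between animals.

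Rac1 and Rac2 encode the small GTPases that switch the oxidase on when loaded with GTP. Rac2 is the blood-cell form, while Rac1 is made in most cells. Rac2 (ENSMUSG00000033220.6; chromosome 15, 78559167 to 78572783, minus strand) had 78790 counts in the brequinar library (1696 CPM, interval 1684 to 1708) and 55561 in the vehicle library (1123 CPM, interval 1114 to 1132), a 1.51-fold ratio (1.49 to 1.53). Rac1 (ENSMUSG00000001847.11; chromosome 5, 143503634 to 143528036, minus strand) had 20343 counts in the brequinar library (438 CPM, interval 432 to 444) and 16973 in the vehicle library (343 CPM, interval 338 to 348), a 1.28-fold ratio (1.25 to 1.30). Neither was called. The longest run of bases that their longest annotated transcripts share is 29, shorter than the 101-base reads, so reads of these 2 genes can be told apart. The third Rac gene, Rac3, had 7 counts in the brequinar library and 7 in the vehicle library.

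Hvcn1 (ENSMUSG00000064267.10; chromosome 5, 122206804 to 122242297, plus strand) encodes the voltage-gated proton channel that balances the charge which the oxidase moves. It was the least abundant member in CPM in the brequinar library, with 5528 counts (119 CPM, interval 116 to 122), against 2755 counts in the vehicle library (55.7 CPM, interval 53.6 to 57.8). The ratio was 2.14-fold (interval 2.04 to 2.24), the nearest to the limit among the 4 genes called. With scaling by total counts its log2 ratio was 1.004, at that limit.

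Some members overlap a gene on the opposite strand, and no source used here says whether counting used strand. Rac1 shares 51.4% of its 4496 annotated exon bases with Daglb (62.1 CPM in the brequinar library and 55.4 CPM in the vehicle library). Hvcn1 shares 44.2% of 3563 bases with Tctn1 (9.62 and 13.7 CPM in the brequinar and vehicle libraries), and Ncf1 shares 11.1% of 3663 bases with Gtf2ird2 (7.77 and 10.7 CPM in the brequinar and vehicle libraries). Reads from the shared bases could be lost, or could come from the partner. Apart from these partners, no annotated transcript of another gene held any 101-base stretch of a member's longest transcript, on either strand.

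Levels of different genes were compared per exon length, as TPM (counts per exon length, scaled to a common total). In the brequinar library the order was Cyba (1899 TPM), Rac2 (1409 TPM), Ncf1 (790 TPM), Ncf4 (599 TPM), Rac1 (251 TPM), Cybb (211 TPM) and Hvcn1 (86.1 TPM). In the vehicle library it was Cyba (1580 TPM), Rac2 (1059 TPM), Ncf1 (387 TPM), Ncf4 (285 TPM), Rac1 (223 TPM), Hvcn1 (45.8 TPM) and Cybb (25.3 TPM). By exon union length, Cybb was thus the lowest member in the vehicle library and stood above Hvcn1 in the brequinar library, while the other places were shared. The place of Rac1 depends on the length used. Exon bases shared with an overlapping gene were also left out of the length, with counts and common total unchanged. Rac1 then stood at 516 TPM in the brequinar library, below Ncf1 (889 TPM) and Ncf4 (599 TPM). In the vehicle library Rac1 stood at 459 TPM, above Ncf1 (435 TPM) and Ncf4 (285 TPM). These Rac1 and Ncf1 values assume that no read from the shared bases was counted, and are too high if such reads were counted. Without replicates, no pair of neighbours can be said to differ beyond the spread between samples.

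**Figure D3:**
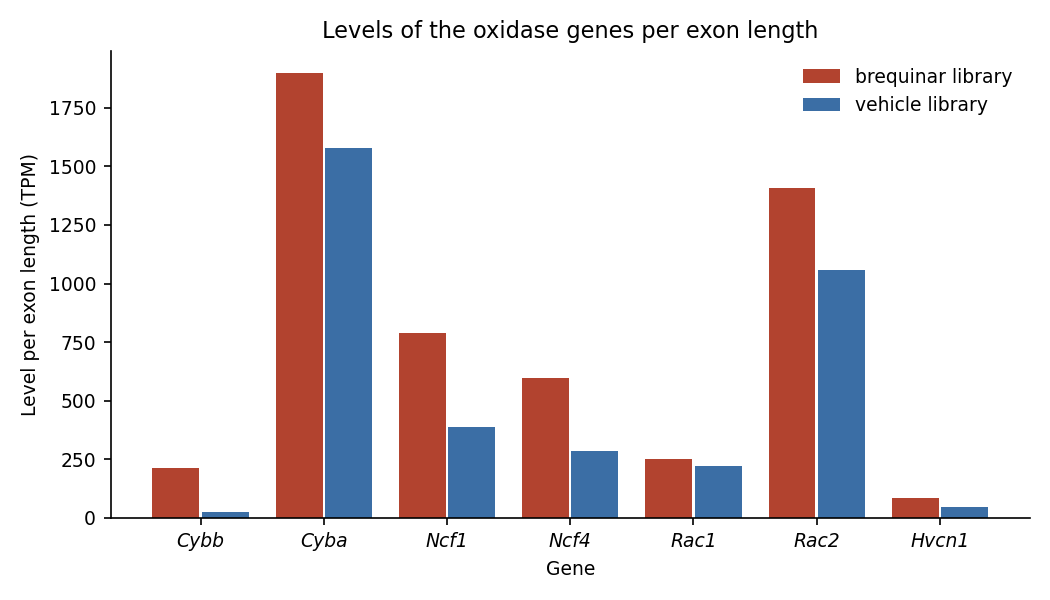
Level per exon length (TPM) of each oxidase gene, with the brequinar library as the left bar and the vehicle library as the right bar. Cyba and Rac2 are the tallest in both libraries, and Cybb is 211 TPM in the brequinar library against 25.3 TPM in the vehicle library.

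Per exon length, Cybb mRNA was scarce beside its partner in both libraries. The Cyba level was 9.0 times the Cybb level in the brequinar library and 62.5 times in the vehicle library. Cybb made up 4.02% of the summed TPM of the 7 genes in the brequinar library and 0.701% in the vehicle library, while the Cyba share was 36.2% in the brequinar library and 43.8% in the vehicle library. The Ncf1 level was 1.32 times the Ncf4 level in the brequinar library and 1.36 times in the vehicle library. The Rac2 level was 5.61 times the Rac1 level in the brequinar library and 4.74 times in the vehicle library, and Rac2 held 84.9% and 82.6% of the summed Rac1, Rac2 and Rac3 TPM in these libraries. When exon bases shared with an overlapping gene were left out of the length, the Rac2 to Rac1 ratio was 2.73 in the brequinar library and 2.31 in the vehicle library. The lower ratios assume that no Rac1 read from the overlap with Daglb was counted, and how those reads were counted is not known.

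The genes nearest to Cybb in level over the 2 libraries, by distance in log2 CPM, were Apobr (308 CPM in the brequinar library and 65.7 CPM in the vehicle library; distance 0.74), Ltf, the lactoferrin gene of secondary granules (561 and 96.1 CPM in the brequinar and vehicle libraries; distance 0.97), and Cd177, a neutrophil surface protein gene (355 and 26.7 CPM in these libraries; distance 1.001). Those nearest to Rac2 were Hnrnpa3, Hmgn2 and Cotl1, at distances of 0.15 to 0.22. With 2 libraries such likeness rests on 2 values per gene.

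Counts over the lists of related genes are given beside the shares over all 11504 genes, 6.45% called higher and 4.40% called lower, and a list's count near these shares is no result about that list. Of 17 kinases and PI3-kinase subunits that prime or steer the cytosolic subunits, 1 was called higher and 0 lower, near the shares over all genes, with a median log2 ratio of 0.27. The gene called was Pik3r5, a regulatory subunit of the PI3-kinase that acts below G protein-coupled receptors (29.0 CPM in the brequinar library and 12.1 CPM in the vehicle library). Pla2g4a, a phospholipase that frees arachidonate, stood at 89.6 CPM in the brequinar library and 56.9 CPM in the vehicle library. Prkcd, a kinase that phosphorylates p47phox, stood at 287 CPM in the brequinar library and 219 CPM in the vehicle library.

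Of 17 regulators of Rac, 1 was called higher and 0 lower, again near the 6.45% and 4.40% over all genes, with a median log2 ratio of 0.42. The gene called was Dock5, an exchange factor (181 CPM in the brequinar library and 84.8 CPM in the vehicle library). Vav2, also an exchange factor, lay just inside the limit on the lower side (11.1 CPM in the brequinar library and 21.1 CPM in the vehicle library). It passes that limit with scaling by total counts. Dock2, the main exchange factor of neutrophil chemotaxis, stood at 494 CPM in the brequinar library and 369 CPM in the vehicle library. Its fellow exchange factor Vav1 stood at 332 CPM in the brequinar library and 282 CPM in the vehicle library, and Prex1 at 98.7 CPM in the brequinar library and 68.8 CPM in the vehicle library. Arhgdib, the dissociation inhibitor that holds Rac2 in the cytosol, was the most abundant of the list at 3582 CPM in the brequinar library and 2257 CPM in the vehicle library. Its log2 ratio of 0.67 lay near that of Rac2 (0.59).

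Proteins that mature or partner the oxidase gave 2 of 9 measured genes called higher and 0 lower, with a median log2 ratio of 0.66. These were S100a8 and S100a9, at log2 ratios of 4.34 and 4.35, whose calprotectin product is known to bring arachidonate to the oxidase; both are also neutrophil genes. Cybc1, the chaperone that gp91phox and p22phox need to be stably made, was not among the genes called, at 85.2 CPM in the brequinar library and 102 CPM in the vehicle library. Rap1a, a small GTPase that copurifies with the membrane core, stood at 220 CPM in the brequinar library and 140 CPM in the vehicle library (log2 ratio 0.66). Moesin (Msn), which links membranes to actin, stood at 1062 CPM in the brequinar library and 554 CPM in the vehicle library.

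None of the 9 listed genes of other NADPH oxidases and their partners reached a mean of 1 CPM, so the phagocyte enzyme was the form with measured mRNA among those listed. Nox3, Noxa1, Duox1, Duox2 and Duoxa1 had 0 counts in both libraries. The highest of the others was Noxo1 in the brequinar library (0.301 CPM) and Nox4 in the vehicle library (1.03 CPM).

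**Figure D4:**
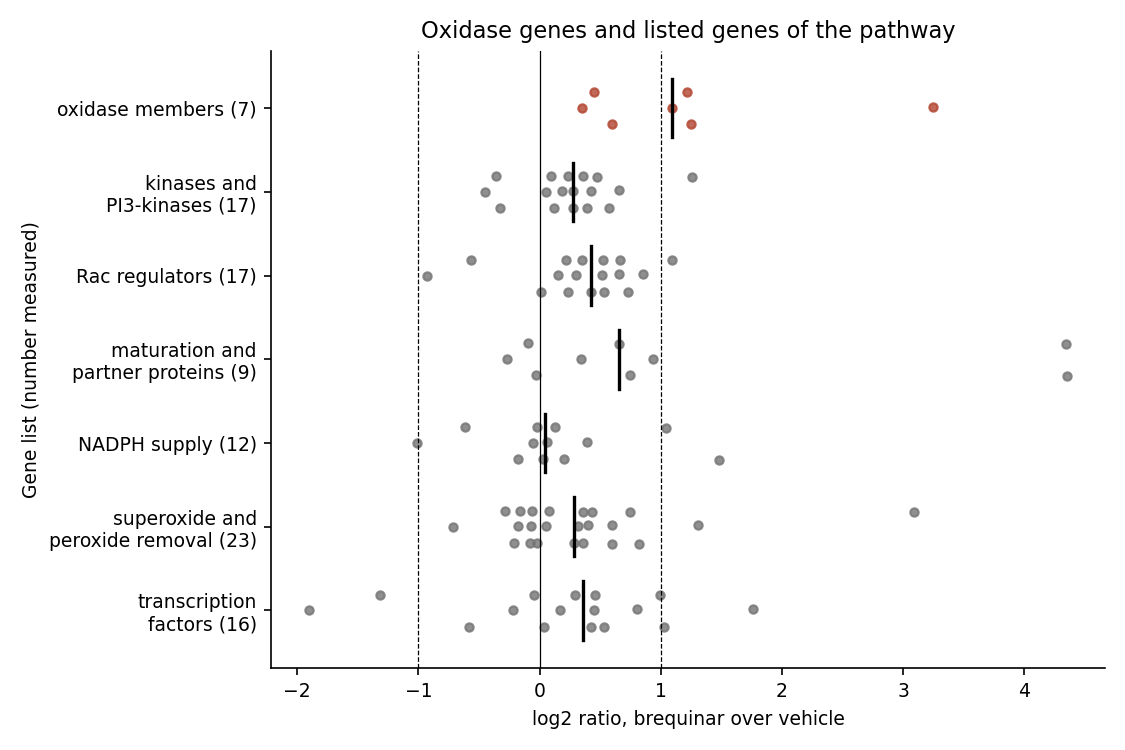
Log2 ratio of brequinar over vehicle for the 7 oxidase genes (red) and for the measured genes of the pathway lists (grey), with each list's median as a vertical bar, the number measured in brackets and dashed lines at 2-fold. The oxidase median is 1.09, and the medians of the other lists run from 0.04 to 0.66.

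NADPH, the electron donor, comes largely from the pentose phosphate pathway. Among 12 measured genes of NADPH supply 2 were called higher and 1 lower, with a median log2 ratio of 0.04, whose sign turns with scaling by total counts. G6pdx, the gene of the first and rate-limiting enzyme, stood at 480 CPM in the brequinar library and 173 CPM in the vehicle library, 2.78-fold higher (interval 2.72 to 2.86). Nadk, which makes NADP from NAD, stood at 332 CPM in the brequinar library and 161 CPM in the vehicle library and was within 2-fold with scaling by total counts. Pgls, the gene of the enzyme after G6pdx, was lower at 33.3 CPM in the brequinar library and 67.3 CPM in the vehicle library, with a counting interval that crosses 2-fold. Idh2 stood at 153 CPM in the brequinar library and 234 CPM in the vehicle library. The enzymes of this supply route thus did not share a direction.

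Of 23 genes that remove superoxide and peroxide, 2 were called higher and 0 lower, near the 6.45% and 4.40% over all genes, with a median log2 ratio of 0.28. Hmox1, the haem oxygenase gene, had the widest ratio at 8.53-fold (interval 7.59 to 9.62; 54.3 CPM in the brequinar library and 6.37 CPM in the vehicle library); it is also made strongly by macrophages that recycle red cells. Glrx, which encodes glutaredoxin, stood at 171 CPM in the brequinar library and 69.3 CPM in the vehicle library. The peroxide remover Prdx5 stood at 905 CPM in the brequinar library and 513 CPM in the vehicle library. Sod2, the mitochondrial superoxide dismutase gene, stood at 96.0 CPM in the brequinar library and 78.9 CPM in the vehicle library. Cat, the catalase gene, stood at 109 CPM in the brequinar library and 114 CPM in the vehicle library.

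Of 16 transcription factors known from the promoters of the gp91phox and p47phox genes, 2 were called higher and 2 lower, with a median log2 ratio of 0.36. Spi1, which encodes PU.1, the main activator of oxidase genes in myeloid cells, stood at 392 CPM in the brequinar library and 288 CPM in the vehicle library, a 1.36-fold ratio. Irf8, an interferon-regulated partner of PU.1, was lower, at 13.8 CPM in the brequinar library and 51.5 CPM in the vehicle library (log2 ratio -1.90). Cebpa, a factor of early granulocyte commitment, was also lower, at 30.3 CPM in the brequinar library and 75.4 CPM in the vehicle library.

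Cebpe, a factor of late granulocyte maturation, lay at the limit (259 CPM in the brequinar library and 130 CPM in the vehicle library; log2 ratio 0.99). Irf1 was called higher (108 CPM in the brequinar library and 53.0 CPM in the vehicle library; log2 ratio 1.02) and lies within 2-fold with scaling by total counts. Satb1 was called higher at a low level (2.78 CPM in the brequinar library and 0.788 CPM in the vehicle library). The factors that differed beyond 2-fold thus went in both directions, and their part in the oxidase values was not tested.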

How the data were processed

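RNA was poly(A)-selected from sorted cells and made into strand-preserving libraries read as paired ends of 101 bases, per the labels' protocols. The deposited values are unnormalised counts of reads per gene, per the file headers and values; STAR 2.4.2a, Picard 1.99 and 2.2.4 and build mm10 are named in the submitters' processing notes, while the sources used here do not name the counting program, its strand setting or its annotation. The 4 closing lines that name no gene (20.2% of reads in the brequinar and 21.6% in the vehicle library) stayed out of library sizes. Symbols, coordinates and lengths came from GENCODE mouse release 21 (GRCm38) for 44585 of 45318 identifiers.

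Library sizes were corrected with TMM factors from edgeR 4.0.16 under R 4.3.3 (0.969 for the brequinar and 1.03 for the vehicle library), which shifts log2 ratios by 0.092 against total counts. Fold intervals are Clopper-Pearson intervals conditional on the summed count, and level intervals are Poisson. TPM used exon union length. The 11504 genes whose mean reached 1 CPM entered. With 1 library per group no test was run, and the precision stated is that of counting. In simulated counts with counting error only, 100 of 100 genes changed 4-fold were called, 0 of 100 changed 1.5-fold, and 0 of 11314 unchanged. Spread between animals was not simulated, so these counts give no rate of false calls in the real libraries. Alternatives were DESeq2 1.42.0 size factors, other scalings, prior counts, filters, thresholds and lengths. Python 3.11.15, numpy 2.4.6, pandas 2.3.3, scipy 1.17.1 and matplotlib 3.10.9 were used.

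The members and the 16 gene lists (7 of the pathway, 9 of markers) were chosen with earlier results of these data known; a further list of the pathway is not reported here. Named genes were the members, genes that overlap them, up to 4 genes per pathway list with the largest absolute log2 ratio, 13 genes named whatever their values, and the 3 genes nearest to Cybb and to Rac2 in level; not all of these are printed. Rac3, Hoxa9, Nox4, Noxo1, Vcam1 and Adgre1, and the genes at 0 counts, were named outside this rule, after their values were seen. So were Kit, Cd34, Mpo, Elane, Cd9, Cd79b and Nkg7.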

Additional observations from a re-analysis of the deposited data

How the results depend on the processing

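No paired analysis was possible because each treatment has 1 library, and leaving out a library was likewise not possible. Each of the 7 members kept a log2 ratio above 0 under every alternative scaling and prior count. The lowest was 0.261, for Rac1 with scaling by total counts. At these counts the prior hardly moves a ratio, and filters and thresholds cannot move it, so only the scalings bear on its sign. With all ratios above 0, 0 members could be called lower. The count of members called higher was 4 except with a 1.5-fold threshold, where it was 5 (Rac2 added), and a 3-fold threshold, where it was 1 (Cybb). The Cybb log2 ratio was 3.15 with scaling by total counts and 3.17 with totals that leave out the 50 most abundant genes (3.24 with TMM). Of the 105 genes of the pathway lists, not all of which passed the filter, 10 were called higher and 3 lower. Over all 11504 genes that passed it, 6.45% were called higher and 4.40% lower. The pathway counts were 24 and 7 at 1.5-fold, 4 and 1 at 3-fold, and 5 genes were lower with no filter. Counts over all genes at these settings are given below, and the pathway counts were not tested against them. With lengths of the longest annotated transcript, the Cybb to Cyba ratio was 0.0972 in the brequinar library and 0.014 in the vehicle library (0.111 and 0.016 with exon union length in these libraries), the Ncf1 to Ncf4 ratio 1.22 and 1.25, and the Rac2 to Rac1 ratio 5.3 and 4.48. An alternative added after seeing the data left exon bases shared with overlapping genes out of the length, with counts unchanged. There the Ncf1 to Ncf4 ratio was 1.48 in the brequinar library and 1.53 in the vehicle library. The Rac2 to Rac1 ratio was 2.73 and 2.31 in these libraries. Over all genes, 742 were called higher and 506 lower; these counts were 2470 and 2074 with no filter, 457 and 230 with a filter at 5 CPM, 1456 and 1463 at 1.5-fold, 390 and 161 at 3-fold, and 288 genes were lower with the whole interval beyond 2-fold. Depth does not limit the members, which had at least 2481 counts in each library; the absence of replicates does.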

Other observations

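Nox4, an oxidase that makes hydrogen peroxide without cytosolic subunits, was below the filter and was noticed after its values were seen. It had 2 counts in the brequinar library and 51 in the vehicle library, a ratio of 0.0418 (interval 0.00493 to 0.159, counting error only). Noxo1, the p47phox-like organiser of non-phagocyte oxidases, had 14 counts in the brequinar library and 42 in the vehicle library.

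Markers of other cell types gave these counts of called genes, beside 6.45% called higher and 4.40% called lower over all genes that passed the filter. A count near these shares, or from a list with few measured genes, is no result about that list. Erythroid markers were higher for 12 of 12 measured genes, with a summed level of 293 CPM in the brequinar library and 83.5 CPM in the vehicle library. Megakaryocyte markers were higher for 3 of 3 measured genes (102 CPM in the brequinar library and 17.6 CPM in the vehicle library), with Gp1ba and Ppbp at 0 counts in the vehicle library. Most of the megakaryocyte sum came from 1 gene, Cd9 (94.2 CPM in the brequinar library and 14.9 CPM in the vehicle library). Eosinophil, basophil and mast cell markers were higher for 2 and lower for 1 of 8 (241 CPM in the brequinar library and 215 CPM in the vehicle library). B and plasma cell markers were higher for 1 and lower for 1 of 5 (22.6 CPM in the brequinar library and 35.3 CPM in the vehicle library). Of these sums Cd79b, the gene called lower, held 9.86 and 26.19 CPM. T and NK cell markers were lower for 1 of 1 measured gene, Nkg7. The list summed to 10.9 CPM in the brequinar library and 23.6 CPM in the vehicle library, of which Nkg7 held 7.45 and 22.05 CPM. Dendritic cell markers were higher for 1 and lower for 2 of 5 (55.4 CPM in the brequinar library and 65.6 CPM in the vehicle library). Blast and progenitor markers were lower for 3 of 8 (3716 CPM in the brequinar library and 10270 CPM in the vehicle library). Most of both blast and progenitor sums came from Mpo and Elane. The part of any of these cells in the oxidase values was not tested.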
